A study of Mus musculus with 6 samples.

Results

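The genes that copy and transcribe mitochondrial DNA were examined in hearts of mice designed to lose Immt in adult cardiomyocytes. The 10 nuclear genes were chosen by name for their known roles: Polrmt, Tfam, Tfb2m and Tfb1m for transcription, Twnk, Polg, Polg2, Ssbp1 and Mgme1 for replication, and Lrpprc for the stability of the transcripts. Like the lists of other genes below, they were chosen with earlier results of these data known. These are 10 of the 27021 genes counted, and all 10 passed the filter on low counts that left 17146 genes for testing. Each library came from the total RNA of 1 heart, 3 of Immtfl/fl-Myh6-MCM genotype and 3 of the control genotype Immt+/+-Myh6-MCM. Both groups were labelled as carrying Myh6-MCM, a tamoxifen-activated Cre recombinase driven by the cardiomyocyte promoter of Myh6. Mice of both genotypes were 6 weeks old when given tamoxifen (40 mg/kg, 3 injections) and 26 weeks old when the heart was taken, 20 weeks after the injections. By design, the recombinase removes exon 4 of Immt in Immtfl/fl-Myh6-MCM mice. Immt encodes mitofilin, the core subunit of the MICOS complex at the crista junctions of the inner mitochondrial membrane. Other cells of the heart keep an intact Immt in this design, and the Immtfl/fl-Myh6-MCM hearts are called Immt-deleted hearts from here on.

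Mitochondrial DNA is a small circular genome that is packaged with protein into nucleoids, and each cell holds many copies. It encodes subunits of the respiratory chain and the rRNAs and tRNAs needed to make them, while every protein that copies or transcribes it is encoded in the nucleus and imported. The heart depends on oxidative phosphorylation and is among the organs affected when these nuclear genes are mutated in people or deleted in mice. Hearts of mice lacking Tfam, Twnk, Polrmt or Lrpprc have served as models of mitochondrial cardiomyopathy, and none of those models was analysed here.

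The libraries held 49793058 to 53251529 counts in Immt-deleted hearts and 42301627 to 44151674 counts in control hearts. Immt itself had 23.0, 28.7 and 39.2 CPM (counts scaled to a common library total by the trimmed mean of M values) in Immt-deleted hearts, against 663, 453 and 524 CPM in control hearts, which left 5.55% of the control mean (log2 fold change -4.17, edgeR adjusted p = 6.33e-06). Esr1, whose ligand-binding sequence the recombinase transgene carries in mutated form, had 323, 71 and 79 counts in Immt-deleted hearts, against 144479, 165400 and 157755 counts in control hearts. Both groups were labelled as carrying this transgene, yet the Immt-deleted hearts lacked the Esr1 signal of the control hearts. The labels do not say why. A difference in transgene expression and the deletion of Immt therefore cannot be told apart in any comparison below. Xist, which coats the silenced X chromosome in female cells, had 20811 counts in Immt-deleted replicate 3 and 11605 counts in control replicate 3, while no other heart passed 16 counts. There was thus 1 Xist-expressing heart per genotype. Immt-deleted replicate 3 also stood farther from its group. Its chi-square per degree of freedom against the other Immt-deleted hearts was 101 and 123, against 38.3 between those hearts and 34.7 to 70.2 between control hearts. The 7 cardiomyocyte markers were detected in every heart and summed to 26706 to 38531 CPM in Immt-deleted hearts and 64810 to 69697 CPM in control hearts. Within this sum Myh6 averaged 19218 CPM in Immt-deleted hearts and 35939 CPM in control hearts, while Tnnt2 overlapped between the groups. In bulk RNA, fewer cardiomyocytes and less RNA of a gene per cardiomyocyte cannot be told apart. Endothelial markers summed to 589 to 792 CPM in Immt-deleted hearts and 886 to 999 CPM in control hearts, and fibroblast markers summed to 942 to 1432 CPM in Immt-deleted hearts and 1024 to 1386 CPM in control hearts. The part of these cell types in the results below was not tested.

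Of the 10 genes, 5 were lower in Immt-deleted hearts and none was higher at an edgeR adjusted p under 0.05. Tfb1m, Mgme1, Polg2, Twnk and Polg fell, with log2 fold changes of -1.16, -1.03, -0.90, -0.62 and -0.45. The number that fell was 2 without Immt-deleted replicate 1, control replicate 1 or control replicate 3, and 7 without Immt-deleted replicate 3. Among all genes tested, 18.5% were lower by the same rule and 19.9% were higher. The log2 fold change was negative for all 10 genes and had a median of -0.46, beside -0.0012 over all genes tested. By role, 4 of the 5 replication genes fell, 1 of the 4 transcription genes fell, and Lrpprc did not pass the test. These counts by role depended on the threshold and on the spread between hearts. Polg passed at -0.45 (standard error 0.122), while Tfb2m, at -0.47 (standard error 0.219), did not. Without Immt-deleted replicate 3, Tfam and Tfb2m of the transcription genes passed as well (edgeR adjusted p = 0.0225 and 0.00244). The values of the 3 Immt-deleted hearts lay below those of the 3 control hearts for 6 of the 10 genes, Polrmt being the sixth, which was true of 26.0% of all genes. For none of the 10 did they lie above, which was true of 26.9% of all genes. Only Mgme1 and Tfb1m fell by more than 2-fold, beside 10.6% of all genes, and none rose by more than 2-fold, beside 9.91% of all genes.

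**Figure D1:**
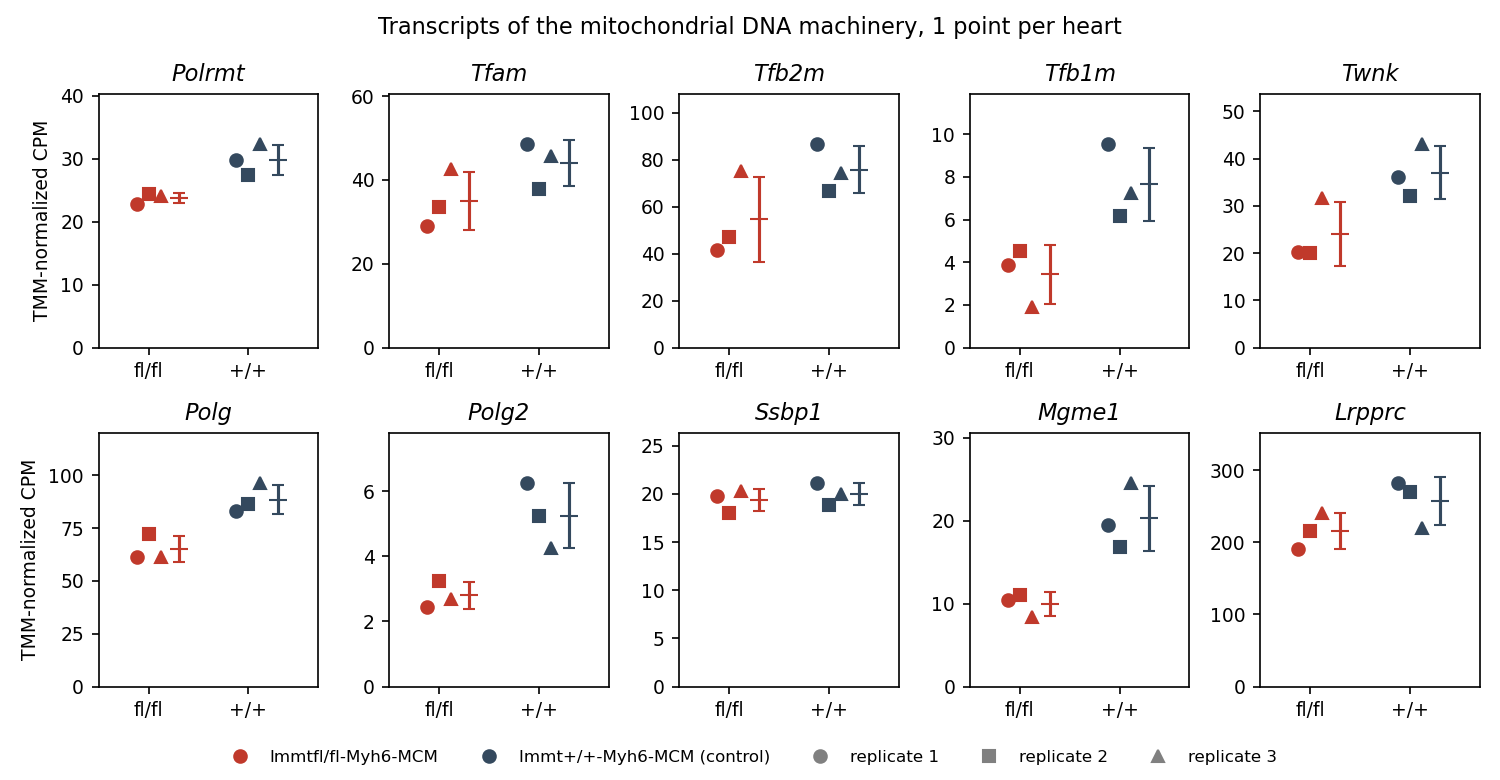
Normalized CPM of the 10 genes in each of the 6 hearts, on linear axes that start at 0, with Immt-deleted hearts left of control hearts in each panel and bars for the mean and SD (n = 3 each). The groups do not overlap for Mgme1, Polg, Polg2, Tfb1m, Twnk and Polrmt, and they overlap for Tfb2m, Tfam, Lrpprc and Ssbp1.

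These counts were taken under other scalings of the libraries as well. Mitochondrially encoded transcripts took 8.20% to 8.85% of the counts in Immt-deleted hearts and 19.5% to 23.3% in control hearts. With library size alone, without scaling factors, the median log2 fold change of all genes moved by 0.25, 5058 genes rose and 2014 fell, against 3418 and 3172 with scaling factors, and Mgme1 was the 1 gene of the 10 that passed. Under that setting 9 of the 10 log2 fold changes stayed negative and Ssbp1 changed sign, at 0.21 (edgeR adjusted p = 0.250). With upper-quartile factors the median of all genes moved by -0.10, and Polrmt also passed (log2 fold change -0.43, edgeR adjusted p = 0.0238). With mitochondrially encoded genes removed before scaling, 5 of the 10 genes fell, as in the comparison above.

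The starts of these genes were read for the letters that 2 families of activators bind, because members of the ETS family, among them Gabpa, and the factor NRF1 are known activators of nuclear genes for mitochondrial DNA maintenance. RefSeq promoter windows of GRCm38.p6, from 250 bases before to 50 bases after the start, matched all 10 genes, and Twnk has 2 RefSeq starts, of which the one at the gene's own start was used. The 8 stretches below run from 120 bases before to 10 bases after the start, 5′ to 3′ on the gene's strand. They show the 6 genes with an ETS match and Mgme1 and Tfb1m, which fell the most and have none in their windows. The stretches of Mgme1 and Tfam lie wholly inside the deposited gene spans, chr2:144270663-144281227 and chr10:71225464-71238280. The Mgme1 window begins at 144270654, so few bases before its gene span were read. Capitals mark the ETS letters CCGGAAG and, in Polrmt, the NRF1 letters, GCGCA and GCGC around 1 free letter, searched on both strands. A match on the other strand reads CTTCCGG for ETS, and GCGC and TGCGC around 1 free letter for NRF1.
Polg (chr7:79466264-79466393, minus strand): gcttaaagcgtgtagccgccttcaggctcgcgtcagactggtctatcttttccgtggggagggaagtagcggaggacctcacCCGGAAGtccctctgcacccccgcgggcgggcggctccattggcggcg
Polg2 (chr11:106779528-106779657, minus strand): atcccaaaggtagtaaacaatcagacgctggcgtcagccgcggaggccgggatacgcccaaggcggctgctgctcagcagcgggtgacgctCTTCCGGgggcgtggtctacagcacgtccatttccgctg
Twnk (chr19:45006438-45006567, plus strand): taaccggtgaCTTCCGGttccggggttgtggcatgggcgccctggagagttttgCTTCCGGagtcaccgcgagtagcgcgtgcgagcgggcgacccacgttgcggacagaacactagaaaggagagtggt
Polrmt (chr10:79746572-79746701, minus strand): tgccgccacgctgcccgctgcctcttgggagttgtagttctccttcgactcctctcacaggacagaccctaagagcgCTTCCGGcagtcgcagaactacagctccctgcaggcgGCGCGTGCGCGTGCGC
Tfam (chr10:71238035-71238164, minus strand): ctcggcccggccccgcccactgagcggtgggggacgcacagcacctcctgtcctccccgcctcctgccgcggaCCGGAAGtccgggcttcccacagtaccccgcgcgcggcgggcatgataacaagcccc
Ssbp1 (chr6:40471348-40471477, plus strand): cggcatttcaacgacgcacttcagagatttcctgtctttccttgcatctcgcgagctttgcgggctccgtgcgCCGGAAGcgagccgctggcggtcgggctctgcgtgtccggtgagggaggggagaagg
Mgme1 (chr2:144270784-144270913, plus strand): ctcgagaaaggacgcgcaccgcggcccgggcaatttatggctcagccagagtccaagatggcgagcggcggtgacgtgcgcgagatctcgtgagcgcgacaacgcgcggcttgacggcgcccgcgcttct
Tfb1m (chr17:3557746-3557875, minus strand): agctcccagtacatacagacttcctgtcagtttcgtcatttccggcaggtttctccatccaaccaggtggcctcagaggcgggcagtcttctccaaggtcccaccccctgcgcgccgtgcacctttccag

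The ETS letters stood in 6 of the 10 windows, against 8.86% of the 32851 promoter windows of the same length. They began 38 bases before the start in Polg, 29 in Polg2, 110 and 66 in Twnk, 43 in Polrmt, and 47 in both Tfam and Ssbp1. Of the 5 genes that fell, 3 held the ETS letters, and 3 of the other 5 did so as well. With the shorter letters CGGAAG, 7 of the 10 windows matched, Tfb2m being the added gene, against 16.9% of all windows. The NRF1 letters stood in the window of Polrmt alone, at 2 overlapping places across its start, and in 4.60% of all windows. The E-box CACGTG, the letters bound by Myc, and the letters TGATGNAA, bound by Atf4 together with a partner, were in none of the 10 windows and in 7.15% and 3.97% of all windows. A match describes the letters and does not show that a factor was bound. The 10 windows were 52.0% to 71.0% G or C. The shares over all windows take in every window, also several of 1 gene, and were not matched for base composition or expression.

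**Figure D2:**
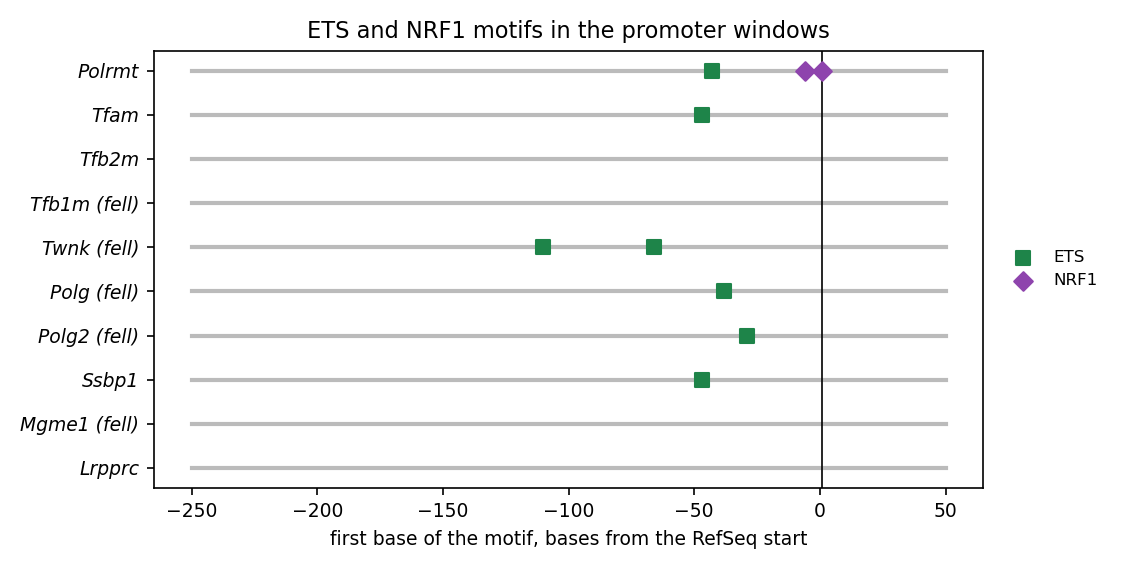
Position of the first base of each ETS match (squares) and NRF1 match (diamonds) in the promoter windows of the 10 genes, in bases from the RefSeq start (vertical line), with each window drawn as a grey line. Genes that fell are marked beside their names, and 3 of these 5 and 3 of the other 5 carry an ETS match.

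Mgme1, on chromosome 2, is an exonuclease that trims the ends of newly copied mitochondrial DNA. It had 10.4, 11.1 and 8.38 CPM in Immt-deleted hearts, against 19.5, 16.8 and 24.5 CPM in control hearts. Every Immt-deleted heart was below every control heart, and 49.1% of the control mean remained. The log2 fold change was -1.03 (standard error 0.194, 95% interval -1.46 to -0.59, edgeR adjusted p = 0.00293), and Mgme1 passed in all 16 alternative fits. Its 244 bases shared with Snx5 lie on the opposite strand, and Snx5 did not pass (log2 fold change -0.22, edgeR adjusted p = 0.216).

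Polg, on chromosome 7, is the catalytic subunit of the mitochondrial DNA polymerase. It had 61.3, 72.2 and 61.5 CPM in Immt-deleted hearts, against 83.0, 86.3 and 96.1 CPM in control hearts. The groups did not overlap, and Polg had the smallest fall of the 5 genes, with 73.5% of the control mean left. Polg fell with a log2 fold change of -0.45 (standard error 0.122, 95% interval -0.72 to -0.17, edgeR adjusted p = 0.0179). It did not pass without Immt-deleted replicate 1 (edgeR adjusted p = 0.0700), without control replicate 3 (0.0756) or in the hearts with low Xist alone (0.0921). Polg shares 4034 bases with Fanci on the opposite strand, which had 53 to 76 counts in Immt-deleted hearts and 31 to 65 counts in control hearts, far below the counts of Polg.

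Polg2, on chromosome 11, is the accessory subunit that holds the polymerase on its template. It had 2.44, 3.26 and 2.702 CPM in Immt-deleted hearts, against 6.24, 5.23 and 4.25 CPM in control hearts. The groups did not overlap, with 53.4% of the control mean left, and the 6 libraries held 144 to 233 counts of it, so it was among the most thinly covered of the 10 genes. For Polg2 the log2 fold change was -0.90 (standard error 0.262, 95% interval -1.49 to -0.31, edgeR adjusted p = 0.0228). Among the fits with 1 library left out, the call was lost without Immt-deleted replicate 1 (edgeR adjusted p = 0.0754), without control replicate 1 (0.10001) and without control replicate 2 (0.0513). Polg2 shares 542 bases with Milr1 on the opposite strand. Milr1 had 87, 106 and 64 counts in Immt-deleted hearts, against 25, 29 and 14 in control hearts, the opposite direction to Polg2 (edgeR adjusted p = 0.0324). That difference did not pass in 5 of 16 alternative fits, among them those without Immt-deleted replicate 1 or 2 (edgeR adjusted p = 0.0657 and 0.116) and without control replicate 1 or 3 (0.0672 and 0.101).

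Within each heart, Polg2 and Polg can be set against each other without any scaling of the libraries. The ratio of Polg2 to Polg counts was 0.0399, 0.0451 and 0.0440 in Immt-deleted hearts, against 0.0752, 0.0606 and 0.0442 in control hearts. Control replicate 3 lay at the level of the Immt-deleted hearts, between their highest and middle values. The difference of the log2 ratios was -0.45, and the two-sided exact permutation test gave p = 0.2, where 3 hearts against 3 cannot go below 0.1. Without control replicate 1 the difference was -0.27.

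Twnk, on chromosome 19, is the helicase that opens the DNA ahead of the polymerase. It had 20.3, 20.0 and 31.7 CPM in Immt-deleted hearts, against 36.0, 32.0 and 43.0 CPM in control hearts. Immt-deleted replicate 3 nearly reached the lowest control heart, and the Xist-expressing heart was the highest of its group in both groups. The log2 fold change was -0.62 (standard error 0.204, 95% interval -1.08 to -0.17, edgeR adjusted p = 0.0369). With a term for Xist expression it was -0.65 (edgeR adjusted p = 0.00632), and without Immt-deleted replicate 1, Immt-deleted replicate 2, control replicate 1 or control replicate 3 the adjusted p was 0.112, 0.124, 0.0855 or 0.140. The ratio of Twnk to Polg counts was 0.332, 0.277 and 0.516 in Immt-deleted hearts, against 0.434, 0.371 and 0.447 in control hearts, which overlapped (difference of log2 ratios -0.20, two-sided exact permutation test p = 0.6). That difference was -0.0079 without Immt-deleted replicate 2 and -0.46 without Immt-deleted replicate 3.

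Ssbp1, on chromosome 6, coats the single strands at the replication fork. It had 19.8, 18.0 and 20.3 CPM in Immt-deleted hearts, against 21.1, 18.8 and 19.9 CPM in control hearts. The values interleaved, and the log2 fold change was -0.04 with a 95% interval of -0.35 to 0.26 (edgeR adjusted p = 0.827). Its sign was positive in 2 of 16 alternative fits, and it passed in none.

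Tfb1m, on chromosome 17, methylates the small mitochondrial rRNA and is grouped with the transcription factors by its homology to Tfb2m. It had 3.87, 4.52 and 1.90 CPM in Immt-deleted hearts, against 9.53, 6.17 and 7.26 CPM in control hearts. The groups did not overlap and 44.8% of the control mean remained, the lowest share of the 10 genes. Tfb1m had a log2 fold change of -1.16 (standard error 0.337, 95% interval -1.92 to -0.40, edgeR adjusted p = 0.0233). The adjusted p was 0.0992 without control replicate 1, 0.0616 without control replicate 3 and 0.0532 in the hearts with low Xist alone. Tfb1m shares 12089 bases with Tiam2 on the opposite strand, which rose (15.98 to 18.7 CPM in Immt-deleted hearts, 4.33 to 7.84 CPM in control hearts, log2 fold change 1.61, edgeR adjusted p = 9.52e-04), and 660 bases with Cldn20, which had 2 to 6 counts in Immt-deleted hearts and 0 in control hearts. The 12089 bases are shared between gene spans and exceed the deposited length of Tfb1m, 3609 bases, so they take in introns. The sources used here do not say whether the counting used strand, so how reads in the shared bases were counted is not known.

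Tfb2m, on chromosome 1, melts the promoter for the polymerase. It had 41.5, 47.3 and 75.1 CPM in Immt-deleted hearts, against 86.5, 66.4 and 74.4 CPM in control hearts. Replicates 1 and 2 of the Immt-deleted hearts were below all controls, and replicate 3 lay between the control values. For Tfb2m the log2 fold change was -0.47 (95% interval -0.97 to 0.03, edgeR adjusted p = 0.122), and without Immt-deleted replicate 3 it was -0.76 (adjusted p = 0.00244). Without Immt-deleted replicate 1 it was -0.29 (edgeR adjusted p = 0.320). In the hearts with low Xist alone it was -0.78 (edgeR adjusted p = 0.0110), and with a term for Xist expression over all 6 hearts it was -0.52 (adjusted p = 0.0664).

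Tfb2m was also set against Tfb1m within each heart. The ratio of Tfb2m to Tfb1m counts was 10.7, 10.5 and 39.5 in Immt-deleted hearts, against 9.07, 10.8 and 10.2 in control hearts. Immt-deleted replicate 3 stood alone, with the lowest Tfb1m and the highest Tfb2m of its group. The difference of the log2 ratios was 0.72 (two-sided exact permutation test p = 0.3) and 0.083 without Immt-deleted replicate 3.

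Tfam, on chromosome 10, bends the promoters of mitochondrial DNA and packages the whole molecule. It had 28.9, 33.4 and 42.6 CPM in Immt-deleted hearts, against 48.5, 37.9 and 45.6 CPM in control hearts. Immt-deleted replicate 3 again lay among the control hearts, the other 2 below them. Tfam had a log2 fold change of -0.33 (95% interval -0.70 to 0.05, edgeR adjusted p = 0.149), -0.49 without Immt-deleted replicate 3 (adjusted p = 0.0225) and -0.20 without Immt-deleted replicate 1 (adjusted p = 0.419).

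Polrmt, also on chromosome 10, is the RNA polymerase of mitochondria, and its short transcripts also prime replication. It had 22.9, 24.4 and 24.1 CPM in Immt-deleted hearts, against 29.7, 27.4 and 32.3 CPM in control hearts. Every Immt-deleted heart was below every control heart, and the Immt-deleted hearts were close together (23.8 ± 0.807 CPM, SD, n = 3, against 29.8 ± 2.44 CPM in control hearts, SD, n = 3). The log2 fold change was -0.33 (standard error 0.128, 95% interval -0.61 to -0.04, edgeR adjusted p = 0.0708), so Polrmt was separated between the groups without passing the test.

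Lrpprc, on chromosome 17, binds mitochondrial mRNAs together with its partner Slirp and keeps them from decay. It had 191, 216 and 241 CPM in Immt-deleted hearts, against 282, 270 and 219 CPM in control hearts. The groups overlapped through control replicate 3, and the log2 fold change was -0.25 (95% interval -0.57 to 0.06, edgeR adjusted p = 0.190). In the hearts with low Xist alone it was -0.44 (edgeR adjusted p = 0.0388), and without Immt-deleted replicate 1 it was -0.16 (adjusted p = 0.477). Slirp did not pass the test either (log2 fold change 0.15, edgeR adjusted p = 0.459). The ratio of Lrpprc to Slirp counts was 8.93, 11.7 and 10.7 in Immt-deleted hearts, against 14.6, 13.7 and 12.6 in control hearts. This ratio was lower in every Immt-deleted heart than in any control heart, with a difference of the log2 ratios of -0.39 (two-sided exact permutation test p = 0.1, which is the lowest this design can give, adjusted p = 0.25 over 5 ratios).

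**Figure D3:**
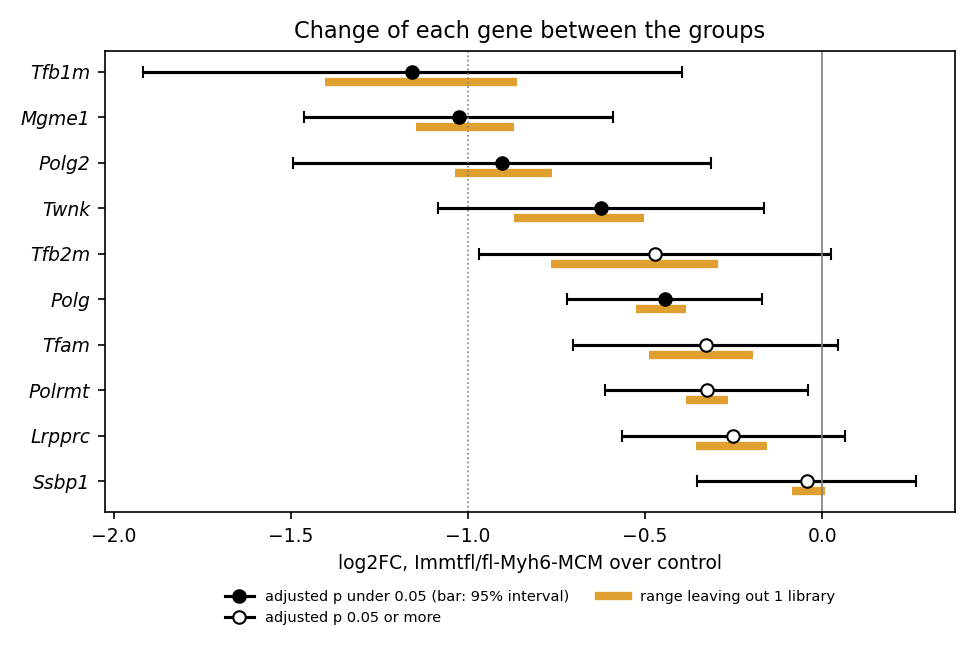
Log2 fold change of the 10 genes, Immt-deleted hearts over control hearts, with 95% intervals from edgeR (n = 3 each), a shaded bar for the range when 1 library is left out, a solid line at no difference and a dotted line at -1. All 10 estimates are negative, and the intervals of Tfb2m, Tfam, Lrpprc and Ssbp1 reach past 0.

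The level of the 10 genes differed far more between genes than between groups. Levels per kilobase of the deposited gene length were highest for Lrpprc, at 25.4 ± 2.93 CPM per kilobase in Immt-deleted hearts and 30.2 ± 3.91 in control hearts, and lowest for Polg2, at 0.643 ± 0.0953 in Immt-deleted hearts and 1.20 ± 0.228 in control hearts (SD, n = 3 each). In Immt-deleted hearts the order ran from Lrpprc through Tfb2m, Tfam, Twnk, Polg, Polrmt, Mgme1, Ssbp1 and Tfb1m to Polg2. In control hearts the order was the same except that Twnk stood before Tfam, and the ranges of those 2 genes overlapped in both groups. The ranges of Lrpprc and Tfb2m, and of Twnk, Tfam and Polg as neighbours, also overlapped in both groups. Those of Tfb1m and Polg2 overlapped in Immt-deleted hearts, and those of Polrmt and Mgme1 and of Ssbp1 and Tfb1m in control hearts. The libraries were primed from the poly-A tail, so a level per length may not measure transcripts evenly along a gene. Between the extremes the order rests on the deposited lengths and cannot be read as an order of abundance. Polg, at 10742 bases, stood below Tfam and Twnk (4438 and 3488 bases) per kilobase. In CPM without this division Polg was above both in every heart, with control means of 88.47 against 43.98 and 37.01. Lrpprc stayed highest and Polg2 lowest by mean CPM in both groups.

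The products of this machinery were lower in Immt-deleted hearts as well. Of the 13 mitochondrially encoded mRNAs, 12 fell, all by more than 2-fold, with a median log2 fold change of -1.68, and mt-Atp8 did not pass the test (log2 fold change -2.07, edgeR adjusted p = 0.0713). mt-Atp8 passed in 4 of 15 alternative fits, and without Immt-deleted replicate 1 its log2 fold change was -3.31 (edgeR adjusted p = 8.27e-04), so that all 13 fell there. mt-Co3, a subunit of complex IV, averaged 64.2 ± 5.14 CPM in Immt-deleted hearts and 355 ± 46.7 CPM in control hearts (SD, n = 3 each, log2 fold change -2.47, edgeR adjusted p = 4.42e-06). mt-Co2, mt-Atp8, mt-Atp6, mt-Co3, mt-Nd3 and mt-Nd4l, which are neighbours on the genome, averaged 16.3 to 609 CPM in control hearts. mt-Nd1, mt-Nd2, mt-Nd4, mt-Nd5, mt-Cytb and mt-Co1 averaged 18033 to 92955 CPM there. The former genes had the most negative log2 fold changes of the 13 mRNAs (-1.71 to -2.72) and enter the median. Why their counts were low was not tested. mt-Nd6, a complex I subunit and the one mRNA encoded on the light strand, averaged 231 ± 23.2 CPM in Immt-deleted hearts and 708 ± 98.2 CPM in control hearts (SD, n = 3 each, log2 fold change -1.62, edgeR adjusted p = 4.74e-05). The rRNAs mt-Rnr1 and mt-Rnr2 fell, with log2 fold changes of -0.80 and -1.80 (edgeR adjusted p = 0.0102 and 3.24e-04). Mitochondrial mRNAs carry short tails and the rRNAs very short ones, so capture from the poly-A tail may not count them in proportion. The cardiomyocyte markers fell with them, 6 of 7 passing with a median log2 fold change of -1.28. Tnnt2 was the marker that did not pass (log2 fold change -0.18, edgeR adjusted p = 0.451).

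The mRNAs of the mitochondrial genome were set against the gene of their polymerase within each heart. Their summed counts per count of Polrmt were 3000, 2965 and 3398 in Immt-deleted hearts, against 8574, 7427 and 6297 in control hearts. The groups were far apart, and the ratio in Immt-deleted hearts was 0.422 of that in control hearts (difference of log2 ratios -1.24, two-sided exact permutation test p = 0.1, adjusted p = 0.25 over 5 ratios).

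**Figure D4:**
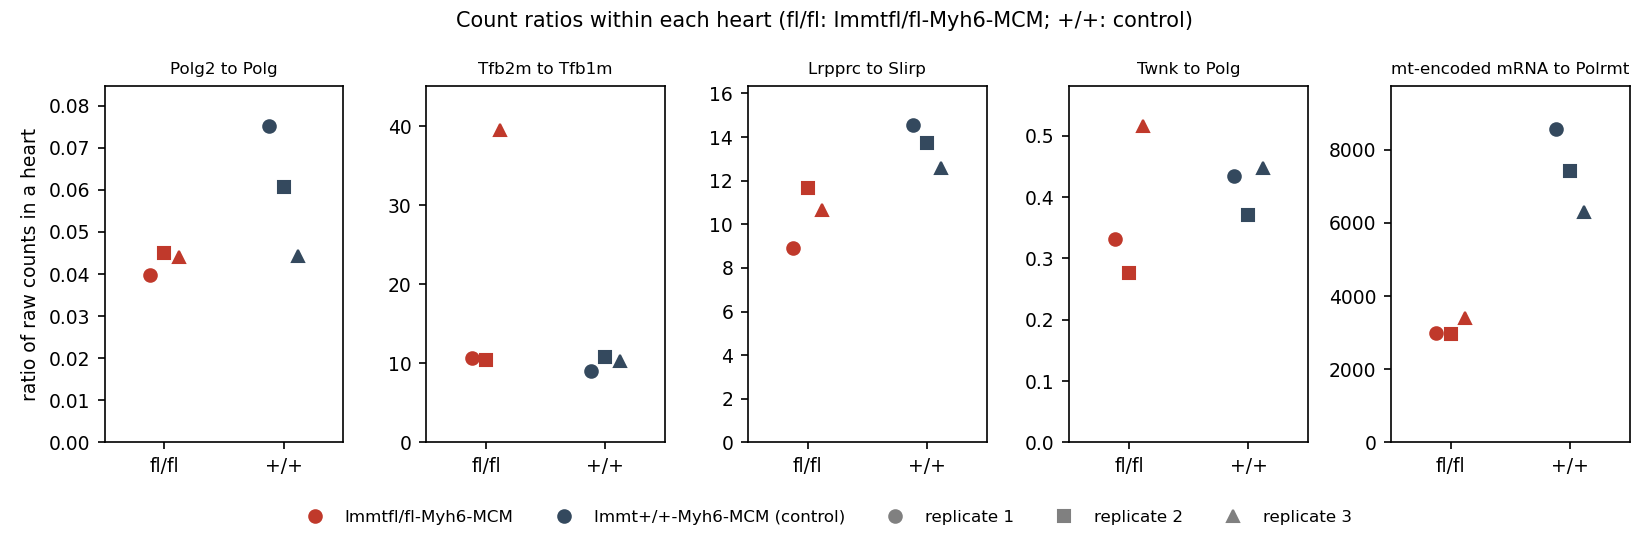
Ratio of raw counts within each heart for the 5 pairs compared, on linear axes that start at 0, with Immt-deleted hearts left of control hearts and circles, squares and triangles for replicates 1, 2 and 3. The ratios of Lrpprc to Slirp and of mitochondrially encoded mRNA to Polrmt do not overlap between the groups, and Immt-deleted replicate 3 stands apart at 39.5 in the ratio of Tfb2m to Tfb1m.

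Around the 10 genes, 75 other nuclear genes of mitochondrial DNA upkeep and expression were tested, on 6 lists. Of these, 20 fell (26.7%, beside 18.5% of all genes) and 13 rose (17.3%, beside 19.9%), with a median log2 fold change of -0.27. With library size alone the balance turned round, with 13 falling and 20 rising, and without control replicate 3 or 2 the number that rose was 7 or 8. Among genes that supply deoxynucleotides to mitochondria 10 of 17 fell and 3 rose, and among nucleoid partners and matrix proteases 5 of 8 rose and none fell.

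The deoxynucleotide genes had a median log2 fold change of -0.54. Some of them, Dut and Rrm2 among them, are also induced for DNA synthesis in dividing cells, whose markers summed to 2.58 to 7.06 CPM in Immt-deleted hearts and 12.9 to 23.8 CPM in control hearts, with 2 of 5 markers falling. The part of dividing cells in these values was not tested. Rrm2, a subunit of ribonucleotide reductase named here after its values were seen, fell with a log2 fold change of -2.09 (edgeR adjusted p = 0.00810). Mpv17, an inner membrane protein needed to keep mitochondrial deoxynucleotide pools, averaged 12.04 ± 0.304 CPM in Immt-deleted hearts and 43.3 ± 1.30 CPM in control hearts (SD, n = 3 each, log2 fold change -1.85, edgeR adjusted p = 9.96e-06). Cmpk2, the mitochondrial kinase of UMP and CMP, Dut, which removes dUTP, and Sucla2, a subunit of succinyl-CoA ligase whose loss in people depletes mitochondrial DNA, fell with log2 fold changes of -2.37, -1.88 and -1.14 (edgeR adjusted p = 4.45e-05, 3.78e-04 and 4.51e-04). The salvage kinases, named here after their values were seen, went opposite ways: Dguok, which phosphorylates purine deoxynucleosides, fell, and Tk2, which phosphorylates pyrimidine deoxynucleosides, rose, with log2 fold changes of -1.15 and 0.96 (edgeR adjusted p = 0.00111 and 0.00374).

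The nucleoid partners and proteases had a median log2 fold change of 0.68. Lonp1, the matrix protease that degrades Tfam protein, averaged 871 ± 41.3 CPM in Immt-deleted hearts and 163 ± 12.5 CPM in control hearts (SD, n = 3 each, log2 fold change 2.42, edgeR adjusted p = 2.62e-06). Shmt2, a serine hydroxymethyltransferase found with nucleoids, averaged 226 ± 31.5 CPM in Immt-deleted hearts and 35.7 ± 0.813 CPM in control hearts (SD, n = 3 each, log2 fold change 2.66, edgeR adjusted p = 2.82e-06). Hspa9, the matrix chaperone mortalin, and Clpx, the unfoldase of the ClpXP protease, rose with log2 fold changes of 1.08 and 0.62 (edgeR adjusted p = 2.98e-04 and 0.0137). The call of Clpx was lost without control replicate 3 (adjusted p = 0.0627) and in the hearts with low Xist alone (log2 fold change 0.42, adjusted p = 0.0809).

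Of 12 other genes of replication and repair, 2 fell and 1 rose, with a median log2 fold change of -0.17. Ung, the uracil-DNA glycosylase of nucleus and mitochondria, averaged 3.01 ± 0.767 CPM in Immt-deleted hearts and 16.3 ± 0.385 CPM in control hearts (SD, n = 3 each, log2 fold change -2.44, edgeR adjusted p = 5.37e-05). Its estimate was below those of all 10 genes. Endog, a mitochondrial endonuclease, fell with a log2 fold change of -0.66 (edgeR adjusted p = 0.0119, and 0.0501 without Immt-deleted replicate 2 or 0.0578 without control replicate 3). With library size alone its log2 fold change was -0.41 (edgeR adjusted p = 0.0756). Ogg1, which removes oxidized guanine, rose with a log2 fold change of 0.75 (edgeR adjusted p = 0.0304), and lost the call without Immt-deleted replicate 1 or 2 or control replicate 2 or 3 (0.0584, 0.0790, 0.0863 and 0.107), with upper-quartile factors (0.0541) and in the hearts with low Xist alone (0.111). Exog, an exonuclease, had a log2 fold change of -0.79 that did not pass (edgeR adjusted p = 0.0560), and it passed in 4 of 16 alternative fits, among them the one without Immt-deleted replicate 3 (adjusted p = 0.0239).

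Of 8 other genes of mitochondrial transcription, 1 fell and none rose, with a median log2 fold change of -0.24. Mterf2, of the family of mitochondrial transcription termination factors, averaged 6.60 ± 2.15 CPM in Immt-deleted hearts and 17.1 ± 3.09 CPM in control hearts (SD, n = 3 each, log2 fold change -1.38, edgeR adjusted p = 0.00303). Nsun4, an rRNA methyltransferase, its partner Mterf4, and Mrpl12, a ribosomal protein that binds the polymerase, had log2 fold changes of 0.35, -0.39 and -0.38 that did not pass (edgeR adjusted p = 0.0585, 0.205 and 0.0687). Mrpl12 passed in 4 of 16 alternative fits, among them those without Immt-deleted replicate 3 (log2 fold change -0.55, edgeR adjusted p = 0.00340) and with a term for Xist expression (adjusted p = 0.0309). Nsun4 passed with library size alone (log2 fold change 0.60, edgeR adjusted p = 0.00347).

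Of 21 genes of mitochondrial RNA processing and turnover, 7 fell and 3 rose, with a median log2 fold change of -0.27. Ptcd2 and Ptcd3, which are pentatricopeptide repeat proteins like Lrpprc, and Fastkd1, of a family of mitochondrial RNA-binding proteins, fell with log2 fold changes of -0.74, -0.76 and -0.84 (edgeR adjusted p = 0.00121, 0.00211 and 0.00236). Rexo2, which degrades the shortest RNA fragments, averaged 77.6 ± 2.35 CPM in Immt-deleted hearts and 33.6 ± 3.25 CPM in control hearts (SD, n = 3 each, log2 fold change 1.21, edgeR adjusted p = 8.23e-05).

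Of 9 regulators that act upstream of this machinery, Myc rose and none fell, with a median log2 fold change of -0.27. Myc averaged 37.1 ± 15.98 CPM in Immt-deleted hearts and 3.28 ± 1.67 CPM in control hearts (SD, n = 3 each, log2 fold change 3.50, edgeR adjusted p = 6.13e-04). Gabpa, the ETS factor named above, and the nuclear receptor Esrra and coactivator Ppargc1b, which drive mitochondrial biogenesis, had log2 fold changes of -0.27, -0.37 and -0.67 that did not pass (edgeR adjusted p = 0.110, 0.0573 and 0.0935). Without Immt-deleted replicate 3 all of these 3 genes passed (adjusted p = 0.0251, 0.0136 and 0.00239), as Tfam and Tfb2m did. Over the 16 alternative fits Gabpa passed in 3, Esrra in 5 and Ppargc1b in 4.

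**Figure D5:**
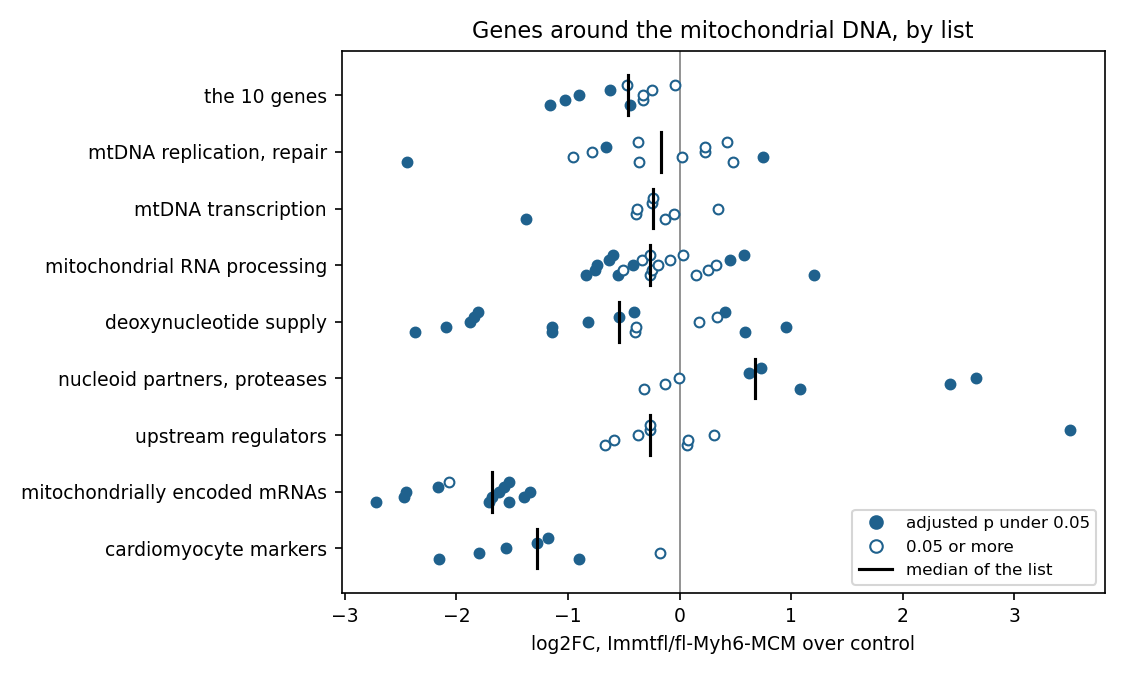
Log2 fold change, Immt-deleted hearts over control hearts, of each tested gene of the 10 named genes and of the lists around them, with filled points for an edgeR adjusted p under 0.05 and a bar for each list's median. The medians run from -1.68 for the mitochondrially encoded mRNAs to 0.68 for the nucleoid partners and proteases, with the 10 genes at -0.46.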

How the data were processed

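Every comparison started from the raw gene counts that the authors deposited. Their processing notes name the builds GRCm38 and mm10 and the tools edgeR 4.0.16, Subread 2.1.1 with featureCounts, SAMtools 1.22.1 and STAR 2.7.11. What each tool did, whether counting used strand and how molecular identifiers were treated is not given in the sources used. The deposited signal (counts divided by a size factor), the deposited FPKM, and the log2 fold changes and p-values of the authors' own comparison were not used.

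Symbols of 24 genes, stored as dates, were looked up again by gene identifier. Genes passing filterByExpr (minimum count 10, minimum total 15) numbered 17146. The test was edgeR's quasi-likelihood F test (edgeR 4.0.16, R 4.3.3, TMM factors, robust dispersion, prior count 0.125), adjusted by Benjamini-Hochberg over these genes. A gene passed at an adjusted p under 0.05. The standard error is the log2 fold change divided by the square root of F. Ratios of raw counts were compared by two-sided exact permutation tests, adjusted over 5 ratios. The fit was tested on simulated data in which 200 genes were set to change. It recovered 1.52%, 31.25% and 73.8% of genes changed by a log2 fold change of 0.5, 1 and 2. Far fewer genes changed there than passed in the hearts, so these shares do not carry over to the hearts. A gene that did not pass is not shown to be unchanged. No libraries were alike within sampling noise.

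The 10 genes and all lists were chosen with earlier results of these data known. Beside the 10 genes, Immt and Esr1, up to 4 genes of each list with the smallest p were named, and other names are given where a result turned on them. Alternatives were RLE and upper-quartile factors, library size alone, DESeq2 1.42.0 (Wald test), no filter, a mean CPM of at least 1, mitochondrially encoded genes removed, the replicate number as a block, and leaving out each library. A term for Xist expression and the hearts with low Xist alone (up to 1000 counts) were chosen after seeing the data.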

Additional observations from a re-analysis of the deposited data

How the results depend on the processing

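Mgme1 passed in all 16 alternative fits, Polg and Tfb1m in 12, Polg2 and Twnk in 11, Tfb2m in 2, and Tfam, Polrmt and Lrpprc in 1 each. The log2 fold change was negative in every fit for 9 of the 10 genes, and that of Ssbp1 was 0.21 with library size alone and -0.086 to 0.0072 with 1 library left out. The number of the 10 genes that fell was 5 in the comparison reported, 1 with library size alone, 2 with a 2-fold threshold and 2 to 7 with 1 library left out. It was 2 without Immt-deleted replicate 1, control replicate 1 or control replicate 3, and 7 without Immt-deleted replicate 3. With a term for Xist expression 5 of the 10 fell, and 5 fell in the hearts with low Xist alone, both chosen after seeing the data. The 5 in the hearts with low Xist were another set. There Polg and Tfb1m did not pass (edgeR adjusted p = 0.0921 and 0.0532), while Tfb2m and Lrpprc did (0.0110 and 0.0388). Of the 75 other nuclear genes, 13 fell and 20 rose with library size alone, 9 fell and 5 rose with a 2-fold threshold, and 14 to 27 fell and 7 to 13 rose with 1 library left out. The rise count was 7 without control replicate 3 and 8 without control replicate 2. Of all genes, 2014 fell and 5058 rose with library size alone, 1818 fell and 1699 rose with a 2-fold threshold, and 2275 to 3203 fell and 2608 to 3421 rose with 1 library left out. With 1 mismatch allowed, the NRF1 letters stood in 5 of the 10 windows and in 14.2% of all windows, against 1 of the 10 and 4.60% for the exact letters. None of the 5 ratios changed direction with 1 library left out. The cause of these changes was not tested.

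Replicate numbers are shared by the groups. Same-numbered hearts had correlations of 0.014, -0.038 and 0.014 across genes, and differently numbered hearts had -0.050 to 0.050. No pairing by number was seen, but with 3 hearts per group these correlations cannot show that the hearts were unpaired. With the replicate number as a block, 4 of the 10 genes fell, Polg2 not passing (edgeR adjusted p = 0.0558). Under the block Ogg1 did not pass (edgeR adjusted p = 0.0646) and mt-Atp8 did (adjusted p = 0.0378).

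With 3 hearts in each group, the adjusted p of Polg, Polg2, Tfb1m and Twnk lay between 0.0179 and 0.0369, close to the threshold. Polg2 and Tfb1m rest on 105 to 356 counts per library. The intervals of Lrpprc, Tfam and Tfb2m include no difference, and that of Polrmt ends at -0.04.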

Other observations

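Among markers of other cell types, macrophage markers summed to 95.4 to 279 CPM in Immt-deleted hearts and 100 to 126 CPM in control hearts, and 1 of the 6 markers rose. Mural cell markers summed to 980 to 1348 CPM in Immt-deleted hearts and 1134 to 1314 CPM in control hearts, and the members went opposite ways, 1 of 5 rising and 2 falling. Acta2, the smooth muscle actin, rose with a log2 fold change of 2.82, and Rgs5, a pericyte marker, and Myh11, the smooth muscle myosin, fell with log2 fold changes of -0.95 and -1.33 (edgeR adjusted p = 0.0169, 0.00113 and 0.0128), all 3 named after their values were seen. Ccnb1, a mitotic cyclin, was at 0 in 1 control heart.

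Immt-deleted replicate 3 had the highest Tfam, Tfb2m, Twnk, Lrpprc and Ssbp1 and the lowest Tfb1m and Mgme1 of its group. That heart also had the highest cardiomyocyte sum of its group (38531 CPM) and the lowest endothelial, macrophage and mural sums (589, 95.4 and 980 CPM). The part of these cells in the values of the 10 genes was not tested.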
